A study of Mus musculus with 12 samples.

Results

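The genes described here mark the oligodendrocyte lineage and the myelin that it makes. They are 30 genes taken by symbol, of 24452 gene symbols listed, and all 30 were found, as 55 of 35840 RefSeq transcripts. The estimated counts of a gene's transcripts were summed, and 28 of the 30 genes passed the edgeR filter on low counts, as did 14739 genes in all. Nkx6-2 and Opalin did not pass, with at most 4 and 2 counts in any library. The study asked how p53 shapes the response of the developing brain to ethanol. Whole somatosensory cortex of male C57BL/6 mice on postnatal day 7 was sequenced in 12 libraries. WT mice and p53 KO mice were each injected intraperitoneally with saline or ethanol, and brains were taken 8 hours after the second injection, which gave 4 groups of 3 libraries. The KO mice were bred from heterozygotes of the Trp53tm1Tyj line, a germline disruption present in every cell type, so a difference between genotypes cannot be placed in the oligodendrocyte lineage. The replicate numbers used here (1, 3 and 13 for WT saline, 4, 5 and 14 for WT ethanol, 7, 8 and 9 for KO saline, 10, 12 and 18 for KO ethanol) are library numbers from the labels and pair no libraries.

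Oligodendrocytes arise from precursor cells that divide in response to platelet-derived growth factor, carry proteoglycans on their surface and depend on basic helix-loop-helix and SOX transcription factors. Precursors that leave the cell cycle pass through a short-lived newly formed stage, and mature cells then make the proteins and the galactolipids of compact myelin. In the mouse cortex the precursors and newly formed cells prevail in the first postnatal week, and most myelin forms later. Ethanol in this period is known to kill cells of this lineage as well as neurons in rodents and primates. In bulk tissue a lower level can come from fewer cells or from less RNA per cell, and these cannot be told apart.

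Total estimated counts ranged from 719735 in KO ethanol replicate 12 to 17066392 in KO saline replicate 8. WT saline replicate 3 held 1953154. These 2 shallow libraries have names that open with L, and the other names open with P. Levels are given as CPM, a library's counts scaled to a common total, after TMM scaling, with factors from 0.564 in WT saline replicate 1 to 1.23. The summed CPM of Trp53 was 3.68 to 26.2 in WT saline and 11.1 to 27.6 in KO saline libraries, so the sum over its transcripts was not lower in the KO mice. Its transcript NM_001127233 made up 65.7% to 70.6% of the Trp53 count in KO saline libraries and 7.01% to 16.6% in WT saline libraries. In the KO ethanol libraries the share was 70.6%, 7.01% and 48.3%, the middle value being that of replicate 12, which had at most 13.0 counts of either transcript. The same 7.01% stood in WT saline replicates 1 and 3 and WT ethanol replicate 5. Estimated counts had been divided among transcripts that share exons, so this repeated share may not be a measured one. Markers of other tissue differed between libraries. Summed choroid plexus markers stood at 5033 CPM in WT ethanol replicate 4, 2261 in KO saline replicate 9 and 2217 in KO ethanol replicate 18, against 0 to 409 in the other 9 libraries. Mural and fibroblast markers reached 726 CPM in WT saline replicate 1, and red blood cell markers stood at 337 to 1319 CPM in WT saline, against 50.3 to 145 in WT ethanol, 35.9 to 99.3 in KO saline and 29.1 to 765 in KO ethanol.

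Early and late genes of the lineage were mixed in their order of level. Per kilobase of transcript, the mean CPM over the 12 libraries was highest for Cspg5, a chondroitin sulfate proteoglycan that neurons also express, at 110 ± 22.0 (SD, n = 12). Sirt2, a deacetylase abundant in oligodendrocytes, followed at 69.4 ± 13.0, and Mbp, the myelin basic protein, at 65.1 ± 31.3. The transcription factor Olig1 stood at 40.2 ± 16.4, Cnp, the cyclic nucleotide phosphodiesterase of uncompacted myelin, at 36.9 ± 19.3, and the tetraspanin Tspan2 at 36.2 ± 12.6. These last 3 levels differed by less than their spread. The precursor genes Vcan, Pdgfra and Cspg4 stood at 18.0, 15.1 and 2.28, and the genes of newly formed cells Bcas1, Gpr17 and Enpp6 at 15.7, 14.2 and 0.904. Of the myelin genes, Mag stood at 3.66, Mog at 0.679, Mobp at 0.350 and Opalin at 0.0254 CPM per kilobase. The earlier genes Matn4, Cspg4, Nkx2-2 and Enpp6 also lay below Mag, as did the transcription factor genes Myrf and Nkx6-2.

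**Figure D1:**
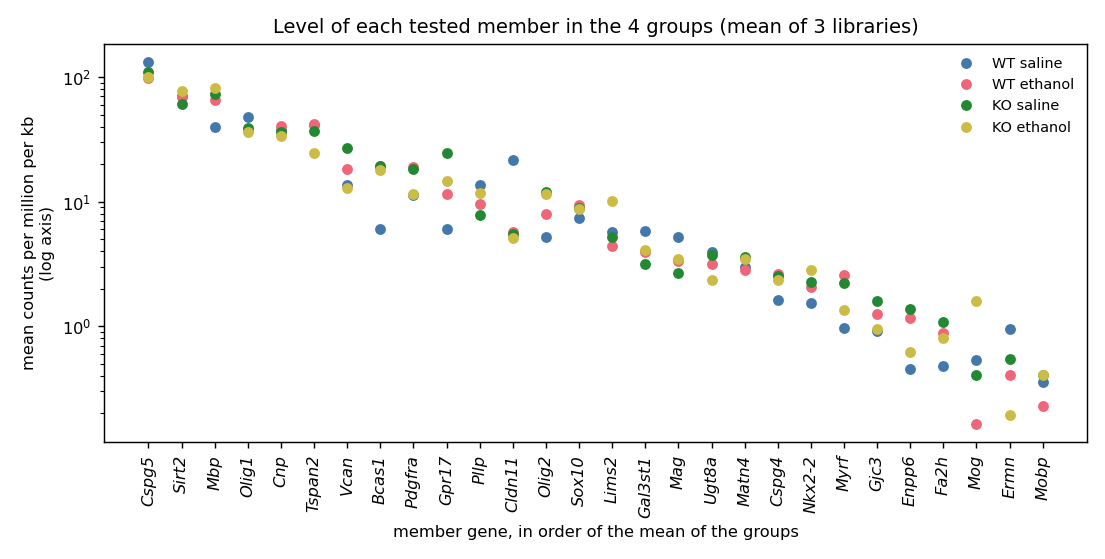
The vertical log axis shows the mean CPM per kilobase of transcript of 3 libraries in each of the 4 groups, and the horizontal axis lists the 28 tested genes in order of level. Cspg5, Sirt2 and Mbp lie at the left end and Mog, Ermn and Mobp at the right end, with early and late genes mixed between them, and WT saline is the lowest group for Bcas1, Gpr17, Olig2 and Enpp6.

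Before the group comparisons, the promoters of 3 of the genes are shown, the precursor receptor gene Pdgfra, the lineage factor gene Olig2 and the newly formed cell gene Enpp6. The sequences are from RefSeq (build GRCm38.p6), where 21 of the 30 genes had an entry, and each runs 5′ to 3′ from 250 bases before the annotated start to 50 after it. Capitals mark ACAATG, a SOX core motif, searched on both strands, so that it reads CATTGT where it lies on the other strand.
Pdgfra, chr5:75152001-75152300, plus strand: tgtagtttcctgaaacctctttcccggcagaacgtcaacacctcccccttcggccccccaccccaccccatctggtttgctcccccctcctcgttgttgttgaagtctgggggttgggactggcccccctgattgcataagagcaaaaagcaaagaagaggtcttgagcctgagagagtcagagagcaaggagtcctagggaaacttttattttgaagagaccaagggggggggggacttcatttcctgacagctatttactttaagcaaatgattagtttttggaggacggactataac
Olig2, chr16:91225300-91225599, plus strand: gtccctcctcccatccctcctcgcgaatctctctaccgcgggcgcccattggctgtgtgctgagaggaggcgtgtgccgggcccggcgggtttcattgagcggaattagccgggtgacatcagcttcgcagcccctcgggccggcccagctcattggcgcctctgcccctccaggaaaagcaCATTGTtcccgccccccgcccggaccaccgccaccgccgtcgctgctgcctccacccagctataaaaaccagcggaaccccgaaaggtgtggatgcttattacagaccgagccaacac
Enpp6, chr8:46986637-46986936, plus strand: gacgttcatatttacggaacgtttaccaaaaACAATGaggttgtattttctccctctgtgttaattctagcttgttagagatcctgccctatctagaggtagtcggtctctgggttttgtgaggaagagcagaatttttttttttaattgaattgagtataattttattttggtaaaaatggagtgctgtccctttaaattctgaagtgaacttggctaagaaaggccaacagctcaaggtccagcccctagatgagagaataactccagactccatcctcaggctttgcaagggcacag
The Pdgfra window held none of the 5 motifs searched, and the Olig2 and Enpp6 windows held 1 each. ACAATG was found in 6 of 27 promoters of the 21 genes and in 12.6% of all 32851 promoters of this length. The second SOX core, ACAAAG, was also in 6 of 27, against 18.7% of all, and the E-box CAGCTG, a sequence that basic helix-loop-helix factors bind, was in 2 of 27, against 16.3%. CTGGCAC, a sequence bound by the myelin regulatory factor Myrf, was in 4 of 27 promoters (Mag, which has 2, Cnp and Opalin), against 5.01% of all, and the variant CTGGTAC was in 1 (Mog), against 2.24%. None of these 5 motifs is contained in another, and a match describes the letters of the window and not a site in use.

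Ethanol was compared with saline in WT mice first. Bcas1, which marks newly formed oligodendrocytes, and Pdgfra, the receptor of the mitogen platelet-derived growth factor on precursors, were higher in the ethanol libraries at the study's adjusted level of 0.30. The background was large, since 22.5% of the 14739 genes passed that level and 12.1% were higher, against 2 of 28 (7.14%) here, so the count for the lineage lay below the background. At an adjusted p under 0.05 (0.0746% of all genes) 0 of 28 passed, and 1 of 28 passed at an unadjusted p under 0.05 (18.3% of all genes), by the quasi-likelihood test of edgeR, adjusted by the Benjamini-Hochberg method. The median log2 fold change was 0.05 over the 28 genes and 0.06 over all genes, with 15 genes above 0 and 13 below. Without WT saline replicate 1 or WT ethanol replicate 4, 0 of 28 passed the adjusted level of 0.30, as did 1.30% and 0.476% of all genes. The count rose to 8 of 28 (28.6%) without WT saline replicate 3, against 48.7% of all genes. It also rose to 8 of 28, all higher, without WT saline replicate 13, against 14.2% of all genes, so in that fit the share lay above the background, and the median of the 28 genes was 0.75. Markers of other cells moved with this comparison. At the same level all 5 red blood cell markers and 5 of 9 microglia markers were lower and 5 of 7 striatal neuron markers higher with ethanol, and their part in the values below was not tested.

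Bcas1 (mm10, chr2:170346991-170427845) stood at 5.88, 23.7 and 23.6 CPM in WT saline replicates 1, 3 and 13. In WT ethanol replicates 4, 5 and 14 it stood at 81.4, 35.3 and 53.4 CPM. Every ethanol library was above every saline library, and the lowest library of all was WT saline replicate 1. The log2 fold change was 1.69 ± 0.54 (SE), 3.22-fold, with an adjusted p of 0.198 in edgeR. It kept its direction and an unadjusted p under 0.05 in all 12 fits that left out 1 library, with values from 1.23 to 1.999, and was 1.52 once the trends of the libraries with transcript length and GC content were removed. Without WT saline replicate 1 the adjusted p was 0.391, and without WT ethanol replicate 4, the library with most choroid plexus RNA, it was 0.519.

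Pdgfra (chr5:75152291-75198204) stood at 70.7, 82.3 and 75.1 CPM in the WT saline libraries. It stood at 163, 109 and 106 CPM in WT ethanol replicates 4, 5 and 14. The groups did not overlap, and non-overlapping groups with higher values in ethanol were found for 11.2% of all genes and for 2 of the 28 (7.14%), these same genes. The log2 fold change was 0.73 ± 0.35, with an adjusted p of 0.288 in edgeR. Transcript length moved with this comparison. Genes that were higher at an unadjusted p under 0.05 had a median transcript length of 4463 bases and those that were lower 1289 bases, and Pdgfra has 6664. With the trend on length and GC content removed, the Pdgfra value was -0.04.

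The other genes did not pass any of these levels in WT mice. Gpr17, a receptor of newly formed cells, stood at 15.3, 17.5 and 61.4 CPM in WT saline and at 65.9, 50.9 and 62.4 in WT ethanol. Replicate 13 of the saline group lay within the ethanol range, and the log2 value was 0.91 ± 0.50. Without that library it was 1.87, at an edgeR adjusted p of 0.151, so 1 library decided this value. Enpp6, a choline phosphodiesterase of newly formed cells, stood at 1.10, 1.03 and 4.61 CPM in saline and 12.3, 2.78 and 2.11 in ethanol, on 2 to 218 counts per library. The ethanol group was spread wider than the difference, with WT ethanol replicate 4 alone high. The fourth gene of this stage, Tspan2, had a log2 value of 0.01 ± 0.39.

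Among the transcription factors, Olig2, Sox10, Nkx2-2 and Myrf had log2 values of 0.62, 0.37, 0.47 and 1.28 with SEs of 0.48 to 0.90, and Olig1 had -0.33 ± 0.49. Olig1 and Olig2 specify the lineage, Sox10 and Nkx2-2 promote differentiation and Myrf switches on myelin genes. Their values were within 1.5 SE of 0. Among the proteoglycans, Cspg4, the antigen NG2 of precursors, had 0.72 ± 0.49, Vcan, the versican core protein, 0.44 ± 0.53 and Cspg5 -0.41 ± 0.35. Matn4, a matrix protein of precursors, had -0.14 ± 0.87, and without WT saline replicate 13 it was 2.17.

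The side of 0 on which the myelin genes lay depended on 1 library. The 8 tested genes of the myelin membrane and its junctions had a median log2 fold change of -0.61, with 3 of 8 above 0, and 0 of 8 passed the adjusted level of 0.30. Without WT saline replicate 13 the median was 1.14 with 7 of 8 above 0, Mag being at 1.86, Cnp at 1.21 and Mbp at 1.93. The WT saline group of that fit held only the shallow replicate 3, with 1953154 counts, and replicate 1, with the lowest TMM factor (0.564). Mbp, the most abundant of the 8, had 0.72 ± 0.61 with all libraries. Mog, a glycoprotein of the outer myelin surface, had -1.98 ± 1.15 on 0 to 32 counts per library. Cldn11, the claudin of myelin tight junctions, stood at 85.4, 0 and 36.3 CPM in WT saline and at 17.04, 4.73 and 10.2 in WT ethanol. Its 3 saline values spanned the whole ethanol range, and its log2 value of -1.94 ± 1.01 had an edgeR adjusted p of 0.311. Fibroblast genes followed the same saline libraries. Dcn stood at 250.3, 0 and 39.0 CPM there, and Col1a2 at 166, 5.14 and 36.3, and their part in the Cldn11 value was not tested. Mag, an adhesion protein of the inner myelin layer, had -0.70 ± 0.88, Mobp -0.75 ± 1.26, Pllp, the proteolipid plasmolipin, -0.53 ± 0.48, the connexin Gjc3 0.32 ± 0.74 and Cnp 0.08 ± 0.57.

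The enzymes of myelin galactolipids were spread around 0. Ugt8a, which adds galactose to ceramide, had -0.37 ± 0.56, Fa2h, which hydroxylates its fatty acid, 0.58 ± 0.99, and Gal3st1, which makes sulfatide, -0.56 ± 0.59. Ermn, a cytoskeletal protein of myelinating cells, had -1.32 ± 0.82, Sirt2 -0.02 ± 0.33 and Lims2 -0.42 ± 0.69. With SEs of 0.33 to 0.99, log2 differences of that size were not detectable in these 6 genes.

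**Figure D2:**
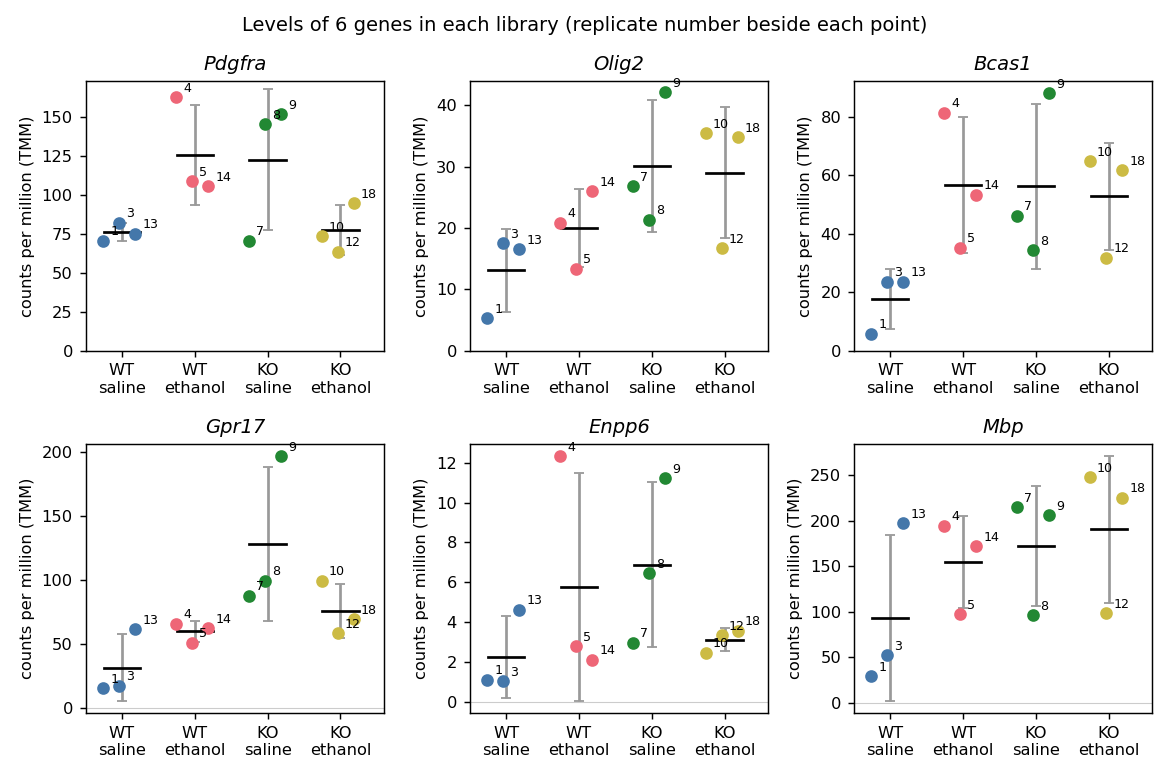
Each panel shows 1 gene in CPM on a linear axis, with each library as a point beside its replicate number, the group mean as a black line and the SD (n = 3) as a grey bar. The WT saline libraries were all below the other groups for Bcas1, and replicates 4 and 9 are the highest of their groups for Pdgfra, Bcas1, Gpr17 and Enpp6.

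In KO mice the question was whether ethanol had an effect without p53, and 0 of 28 genes passed an adjusted p under 0.30 or an unadjusted p under 0.05. The background was 0% and 3.15% of all genes, and 0 genes in the whole table passed the adjusted level of 0.30. The median log2 fold change was -0.06 over the 28 genes and 0.01 over all genes, with 12 above 0 and 16 below. No gene of the 28 had groups that did not overlap, against 10.8% of all genes.

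Bcas1 stood at 46.2, 34.4 and 88.2 CPM in KO saline replicates 7, 8 and 9 and at 64.9, 31.8 and 61.7 in KO ethanol replicates 10, 12 and 18. These ranges overlapped almost entirely, and the log2 value was -0.06 ± 0.52. Pdgfra stood at 70.7, 145 and 152 CPM in KO saline and 73.7, 63.5 and 94.8 in KO ethanol, with a log2 value of -0.66 ± 0.36. KO saline replicate 7 lay among the ethanol libraries. Gpr17 stood at 87.5, 99.2 and 197 CPM in KO saline and 99.2, 58.5 and 69.4 in KO ethanol, with -0.74 ± 0.50. Enpp6 stood at 2.95, 6.44 and 11.2 CPM against 2.45, 3.34 and 3.55, with -1.16 ± 0.80.

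All 4 genes of the newly formed stage were below 0 in KO mice, with a median of -0.67, and all 4 were above 0 in WT mice, with a median of 1.07. Of these values, Tspan2 in WT mice (0.01 ± 0.39) and Bcas1 in KO mice (-0.06 ± 0.52) lay near 0. Enpp6 in WT mice was at -0.05 without WT ethanol replicate 4. The share of all genes with such opposite signs was not counted. For the 8 myelin genes the median was 0.27 in KO mice, with 6 of 8 above 0. The other values in KO mice lay between -1.04 for Ermn and 1.08 for Mog. Vcan, at -1.03 ± 0.53, had the smallest p of the 28 genes in KO mice, with an adjusted p of 0.999 in edgeR. The 5 transcription factors lay between -0.45 for Myrf and 0.14 for Nkx2-2, and the 3 galactolipid enzymes between -0.71 for Ugt8a and 0.17 for Gal3st1.

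**Figure D3:**
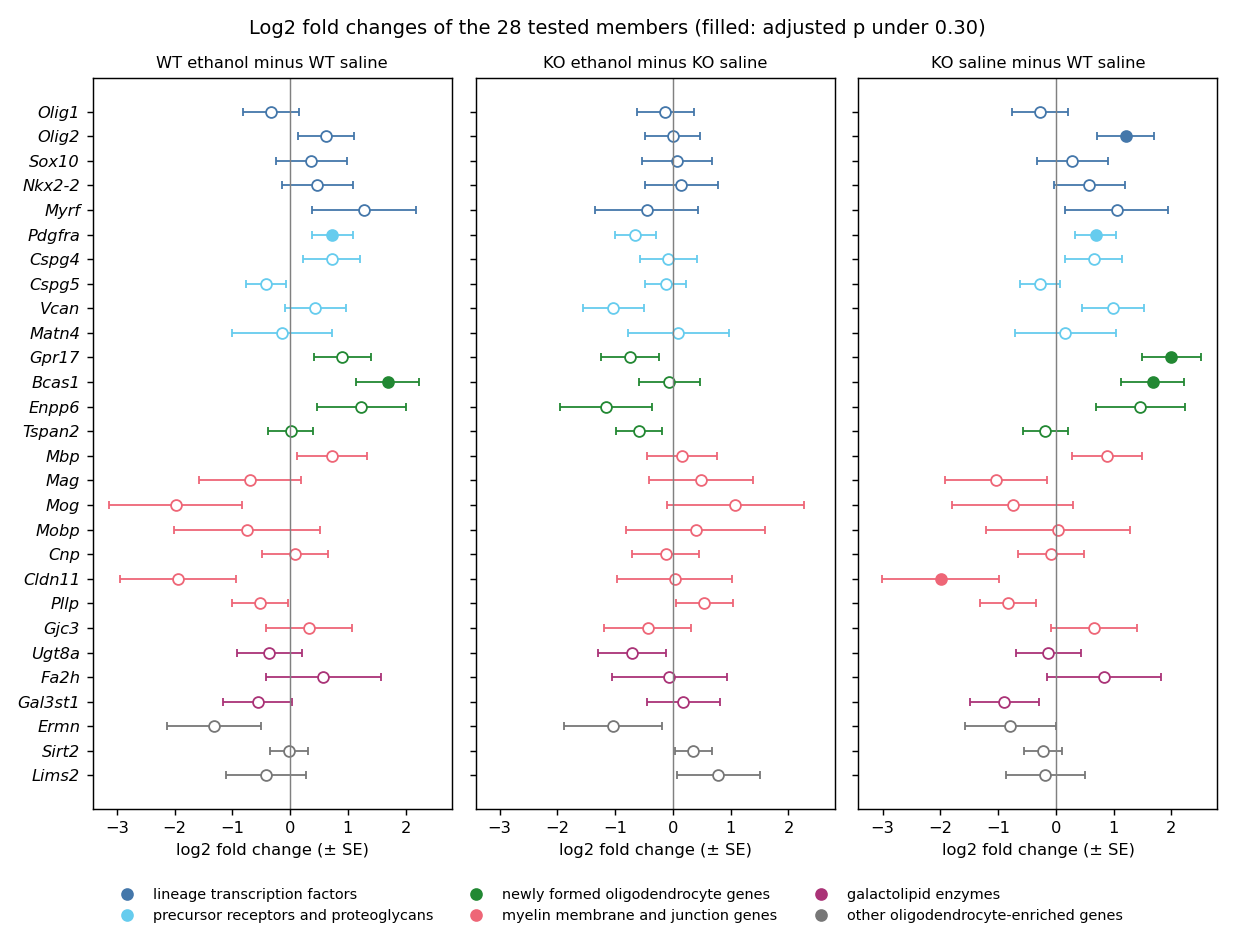
Points show the log2 fold change of each of the 28 genes and bars its SE, with colours for the gene groups, in 3 panels for WT ethanol minus WT saline, KO ethanol minus KO saline and KO saline minus WT saline. Filled points pass the adjusted level of 0.30 in edgeR, 2 in the first panel, 0 in the second and 5 in the last, and the outer panels use the same WT saline libraries.

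The Genotype x Treatment interaction tests whether the ethanol effect differed between genotypes. Pdgfra passed the adjusted level of 0.30, at -1.38 ± 0.50 on the log2 scale (effect in KO minus effect in WT), with an adjusted p of 0.262 in edgeR. That is 1 of 28 genes, where 11.1% of all genes passed. At an unadjusted p under 0.05, 4 of 28 (14.3%) passed, all of them lower, and of all genes 15.2% passed and 7.67% were lower. The other 3 were the newly formed genes Bcas1 at -1.75 ± 0.75, Gpr17 at -1.65 ± 0.71 and Enpp6 at -2.40 ± 1.11, with edgeR adjusted p-values of 0.304, 0.304 and 0.322. The median was -0.31 over the 28 genes and -0.11 over all genes, and it was -1.70 over the 4 newly formed genes and 1.11 over the 8 myelin genes, of which 5 were above 0.

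Transcript length moved with the interaction too. Genes that were lower at an unadjusted p under 0.05 had a median length of 5168 bases and those that were higher 1121, and the 4 newly formed genes have a median of 3945. With the trend on length and GC content removed, 1 of 28 genes passed an unadjusted p under 0.05, which was Bcas1 at -1.62, against 8.96% of all genes. Of the 12 fits that left out 1 library, an unadjusted p under 0.05 was kept in 10 for Pdgfra, 7 for Bcas1, 5 for Gpr17 and 4 for Enpp6. Without WT ethanol replicate 4 the count was 0 of 28, against 10.7% of all genes.

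KO mice were then compared with WT mice under saline, a comparison that shares its WT saline libraries with that of ethanol in WT mice. At the adjusted level of 0.30, 5 of 28 genes (17.9%) passed, against 25.8% of all genes. Gpr17, Bcas1, Olig2 and Pdgfra were higher in KO mice and Cldn11 was lower, 4 and 1 of 28, against 12.4% and 13.4% of all genes. At an unadjusted p under 0.05, 3 of 28 (10.7%) passed, against 19.6% of all genes. At an adjusted p under 0.05, 0 of 28 passed, against 0.0543% of all genes. The medians were 0.10 for the 28 genes and 0.04 for all genes. All 5 red blood cell markers, 5 of 9 microglia markers and 3 of 7 mural and fibroblast markers were lower in KO mice at the adjusted level of 0.30, and their part in these values was not tested.

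Gpr17 had the largest difference. Its KO saline values of 87.5, 99.2 and 197 CPM were all above its WT saline values of 15.3, 17.5 and 61.4 CPM. The log2 fold change was 2.003 ± 0.51, 4.01-fold, with an adjusted p of 0.160 in edgeR, and 0.0124 in DESeq2. Gpr17 lies within Lims2 on the opposite strand (mm10, chr18:31942999-31949636 within chr18:31931507-31958619). The libraries were stranded, but the sources used here do not say whether counting used the strand, so reads of the pair may not be separable. The same holds for Bcas1, Nkx2-2, Tspan2, Sirt2, Matn4, Pdgfra and Nkx6-2, which overlap Bcas1os2, Nkx2-2os, Tspan2os, Gm19897, Rbpjl, Mir7025 and Inpp5a. Lims2 had a log2 value of -0.18 ± 0.69 in this comparison.

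Bcas1 had a log2 fold change of 1.68 ± 0.54 between KO and WT saline mice (adjusted p = 0.176 in edgeR), and its 3 KO values were above its 3 WT values. Olig2 (chr16:91225550-91228677) stood at 26.8, 21.3 and 42.1 CPM in KO saline against 5.33, 17.5 and 16.6 in WT saline, also with no overlap, and had 1.21 ± 0.49 (adjusted p = 0.206). The share of genes with non-overlapping groups, higher in KO mice, was 12.9% of all genes and 3 of 28 (10.7%) here, these 3 genes. With the trend on length and GC content removed, Gpr17, Bcas1 and Olig2 had 1.35, 1.57 and 1.06, and Pdgfra went from 0.69 to -0.14. WT saline replicate 1, the lowest of all 12 libraries in Gpr17, Bcas1 and Olig2, weighed on the 3 values, and without it Gpr17 was at 1.64, Bcas1 at 1.24 and Olig2 at 0.81, where Olig2 no longer passed an unadjusted p under 0.05. Without WT saline replicate 1, KO saline replicate 8 or KO saline replicate 9, 0 of 28 genes passed the adjusted level of 0.30, and the share of all genes that passed fell to 0.246%, 0.0599% and 0.0599%. The count was 10 of 28 (35.7%) without WT saline replicate 3, against 50.4% of all genes. It was 9 of 28 (32.1%), all higher, without WT saline replicate 13, against 13.7% of all genes, and Gpr17 was at 2.97. Cldn11, at -1.995 ± 1.01 (adjusted p = 0.282), rested on the WT saline values described above.

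Of the genes that did not pass, Enpp6 had 1.46 ± 0.77, Myrf 1.05 ± 0.90, Vcan 0.99 ± 0.53, Mbp 0.88 ± 0.61 and Cspg4 0.65 ± 0.49. On the lower side were Mag at -1.03 ± 0.89, Gal3st1 at -0.89 ± 0.60, Pllp at -0.83 ± 0.48, Ermn at -0.79 ± 0.79 and Mog at -0.74 ± 1.05. The remaining 13 of the 28 had values from -0.28 for Olig1 to 0.84 for Fa2h.

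Under ethanol, KO mice were compared with WT mice, and 0 of 28 genes passed an unadjusted p under 0.05 in edgeR, against 3.24% of all genes, or an adjusted p under 0.30, against 0%. Pdgfra and Tspan2 had KO values below all WT values. Tspan2, which supports the maturing of oligodendrocytes, stood at 64.3, 85.3 and 51.6 CPM in WT ethanol and 39.5, 45.1 and 33.5 in KO ethanol, with a log2 value of -0.78 ± 0.40. Mog stood at 0.396, 0.0927 and 0.351 CPM in WT ethanol and 0.947, 6.69 and 0.571 in KO ethanol, so its KO values were above all WT values, and the highest was that of the shallow replicate 12. These 3 of 28 genes (10.7%) compare with 12.7% of all genes, 8.7% with lower and 4.04% with higher KO values. Bcas1 and Gpr17, which stood apart under saline, had -0.07 ± 0.52 and 0.36 ± 0.50 under ethanol.

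Main effects average over the other factor. Treatment gave 1 of 28 genes at an unadjusted p under 0.05, Bcas1 at 0.81 ± 0.37, against 7.09% of all genes. Genotype gave 2 of 28, Gpr17 at 1.18 ± 0.36 and Olig2 at 0.90 ± 0.34, against 7.67% of all genes, and edgeR adjusted p-values were 0.623 or above. The median for Genotype was 0.22 over the 28 genes and -0.02 over all genes, with 17 of 28 above 0. Neither factor gave a gene of the 28 at the adjusted level of 0.30, where Treatment had 0.00678% of all genes and Genotype 0%.

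Mbp was listed as 8 transcripts with a pair of starts. Transcripts that begin at the upstream start (mm10, chr18:82475123) make Golli proteins, which neurons and precursors also express, and those that begin downstream (chr18:82554463) make the classic myelin basic proteins. The downstream transcripts summed to 17.9, 24.5 and 174 CPM in WT saline and 149, 63.4 and 147 in WT ethanol. They summed to 193, 57.0 and 163 CPM in KO saline and 223, 70.0 and 201 in KO ethanol. Each group held at least 1 library low in the classic form, WT saline replicates 1 and 3, WT ethanol replicate 5, KO saline replicate 8 and KO ethanol replicate 12. The upstream transcripts ranged less, from 11.7 CPM in WT saline replicate 1 to 45.7 in WT ethanol replicate 4. They made up 10.1% to 53.3% of the Mbp count, with the largest shares in WT saline replicates 3 and 1 and KO saline replicate 8. Neither sum passed a level in any comparison, the ethanol effect in WT mice being 0.73 ± 0.41 for the upstream and 0.72 ± 0.75 for the downstream transcripts. Estimated counts had been divided among transcripts that share exons, so the split is less certain than the sum.

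**Figure D4:**
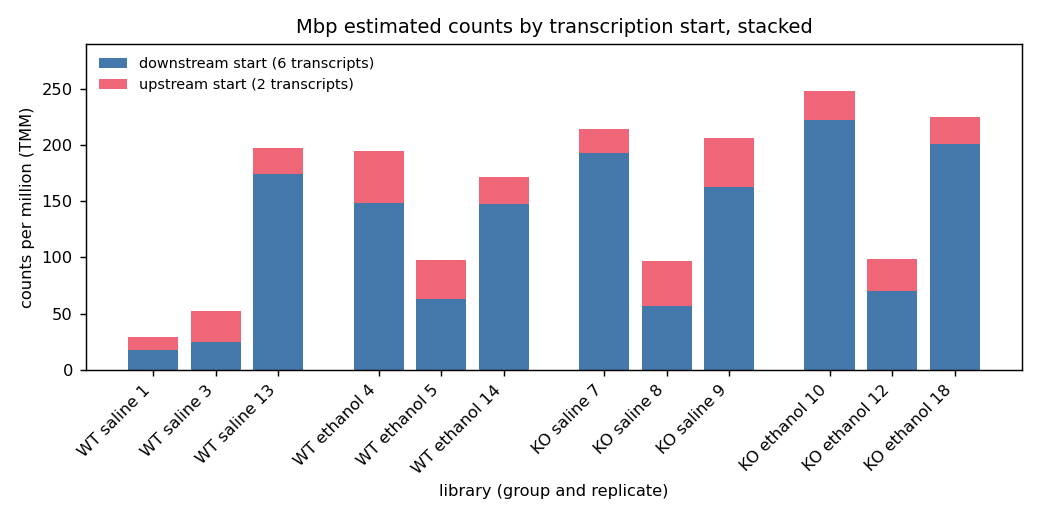
Stacked bars show the Mbp count in CPM in each library, blue for the 6 transcripts from the downstream start and red for the 2 from the upstream start. The red part lies between 11.7 and 45.7 CPM in all libraries, and the blue part runs from 17.9 to 223 CPM.

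Within each group the 28 genes tended to follow the same library. In WT ethanol, replicate 4 was the highest of the 3 libraries for 23 of 28 genes (82.1%), against 39.5% of all genes. In KO saline, replicate 9 was the highest for 23 of 28 (82.1%), against 25.8% of all genes, and replicate 8 was the lowest for 20 of 28 (71.4%), against 36.7%. In WT saline, replicate 13 was the highest for 17 of 28 (60.7%), against 25.1%, and replicate 1 the lowest for 18 of 28 (64.3%), against 34.7%. The KO ethanol libraries showed shares near the background, from 28.6% to 39.3% for the highest library. Genes of 1 lineage are not independent of each other, and these shares are descriptions. Replicates 4 and 9 were also the 2 libraries with the highest choroid plexus markers. KO ethanol replicate 18, with 2217 CPM of these markers against 2261 in replicate 9, was the highest for 9 of 28 genes (32.1%), against 33.5% of all genes. WT saline replicate 13 had 122 CPM of them. Replicate 4 had 381 CPM of cortical excitatory neuron markers, where the other 11 libraries had 753 to 1397. It also had 634.5 CPM of hippocampal granule and thalamic markers, where those 11 had 35.1 to 153. Summed striatal neuron markers stood at 135, 535 and 1123 CPM in WT ethanol replicates 4, 5 and 14. In the other groups they stood at 104 to 488 CPM. The part of tissue composition in these shares was not tested.

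The spread between replicates was wider than for all genes. Their median SD within a group, on the log2 scale, was 1.02 in WT saline, against 0.631 for all genes. It was 0.486 against 0.400 in WT ethanol, 0.617 against 0.338 in KO saline and 0.578 against 0.519 in KO ethanol. The summed level of the 4 newly formed genes was 93.5, 78.2 and 181 CPM in WT saline and 169.5 to 224 in WT ethanol. In KO saline it was 173 to 362 CPM and in KO ethanol 139 to 206. The 9 myelin genes summed to 108 to 513 CPM in WT saline, a range that held every library of the other groups.

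**Figure D5:**
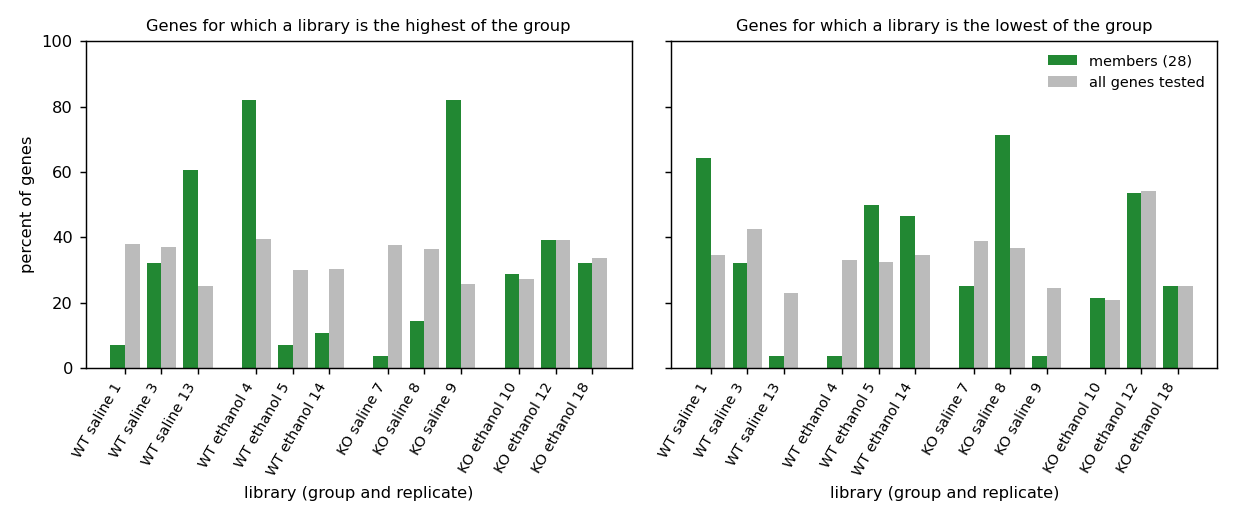
Bars show, for each library, the percent of genes for which it had the highest (left) or lowest (right) level among the 3 libraries of its group, green for the 28 genes and grey for all genes tested. WT ethanol 4 and KO saline 9 stand at 82.1% of the 28 genes on the left, above 39.5% and 25.8% of all genes.

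Other genes of the lineage were read from 4 lists of 56 genes in all, of which 49 were tested and Klk6, a protease of mature cells, was at 0 in every library. In WT mice 8 of 49 were higher and 3 lower with ethanol at the adjusted level of 0.30, against 22.5% of all genes in both directions. In saline mice 6 were higher and 8 lower in KO than in WT mice, against 25.8% of all genes. The interaction gave 2 higher and 4 lower, against 11.1%, and the 4 other comparisons 0. None passed an adjusted p under 0.05 in edgeR. Transcript length moved with the first 2 of these comparisons over all genes. At an unadjusted p under 0.05, higher genes had median lengths of 4463 bases for ethanol in WT mice and 4686 for KO versus WT saline. Lower genes had medians of 1289 and 1266 bases. The values of these lists below are from the fit that kept this trend, and values with it removed are not given here.

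Precursor genes were among those higher with ethanol in WT mice. Pcdh15, a protocadherin, had 1.74 ± 0.59, Ptprz1, a receptor phosphatase that astrocytes also express, 1.16 ± 0.46, and the SOX factor Sox6 0.98 ± 0.39. Ptprz1 stood at 275, 120 and 227 CPM in WT saline and 615, 427 and 349 in WT ethanol, with no overlap. In KO mice it stood at 228, 700 and 555 CPM in saline and 222, 241 and 233 in ethanol, and its interaction was -2.25 ± 0.65 (adjusted p = 0.250 in edgeR). Gpr37l1, a receptor of astrocytes and precursors, was lower in KO than in WT saline mice, at -1.24 ± 0.56.

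Regulators higher with ethanol in WT mice were Zfp536 at 3.24 ± 0.91, on levels of 0 to 8.44 CPM, Id4, an inhibitor of helix-loop-helix factors, at 2.18 ± 0.72, Notch1, the receptor that holds precursors undifferentiated, at 1.49 ± 0.57, and the Wnt effector Tcf7l2 at 3.75 ± 1.47. All 4 were highest in WT ethanol replicate 4. Tcf7l2 stood at 471 CPM there and at 1.03 to 29.2 in the other 11 libraries, and thalamic neurons also express it. Id4 stood at 172, 25.6 and 33.6 CPM in WT ethanol replicates 4, 5 and 14, Notch1 at 57.8, 14.6 and 15.1, and Zfp536 at 8.44, 2.32 and 1.23. The growth factor Tgfa had 1.84 ± 0.44 (adjusted p = 0.130 in edgeR), the smallest adjusted p of the lists. It stood at 9.19, 9.77 and 19.6 CPM in WT saline and 42.4, 39.0 and 59.7 in WT ethanol, and its ethanol effect in KO mice was 0.00 ± 0.43.

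Genes of mature cells were among those lower than in WT saline mice. Qdpr, dihydropteridine reductase, had -1.24 ± 0.42 with ethanol in WT mice and -1.34 ± 0.42 in KO saline mice, Cryab, a small heat shock protein, -1.86 ± 0.79 and -2.07 ± 0.80, and the connexin Gjb1 -1.58 ± 0.61 and -1.29 ± 0.59. In KO versus WT saline mice, Apod, a lipocalin that fibroblasts also make, had -2.27 ± 0.82 and Aspa, aspartoacylase, -1.99 ± 0.82. Apod stood at 214, 5.66 and 36.2 CPM in WT saline replicates 1, 3 and 13 and at 14.65 to 21.9 in KO saline. Aspa stood at 10.3, 1.03 and 2.60 CPM against 0.959 to 1.67. For both genes WT saline replicate 1 was the highest library, and replicate 3 lay below the highest KO saline library. Hapln2, a link protein of nodes, was higher in KO mice, at 2.82 ± 1.13. Its levels were low, at 0 to 0.149 CPM in WT saline and 0.176 to 1.475 in KO saline. Both comparisons use the same WT saline libraries, so the second is not independent of the first.

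The 2 shallow libraries bore on the counts. Without both, 12 of 28 genes passed the adjusted level of 0.30 in WT ethanol versus saline, 6 higher and 6 lower, and 55.4% of all genes did. In KO versus WT saline mice 12 of 28 passed, also 6 and 6, and 56.4% of all genes did. Bcas1 and Cldn11 then passed an adjusted p under 0.05 in both comparisons, at 1.85 and -2.60 for ethanol and 1.86 and -2.63 for KO saline, and Gpr17 passed in the second, at 1.68, in edgeR, against 21.5% and 25.3% of all genes. For Cldn11, leaving out replicate 3 removed the WT saline library that stood at 0. The share of lineage genes that passed the adjusted level of 0.30 (42.9%) was below that of all genes in both fits.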

How the data were processed

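Per the labels, the 12 libraries are from somatosensory cortex, and genotype, treatment and library number were taken from the labels. That the whole somatosensory cortex was used and that the RNA-seq was stranded comes from the study's text. Reads above a quality minimum were placed on mm10 by the authors with TopHat, which runs Bowtie2, and RefSeq transcripts were then counted in Partek Flow, whose version and counting settings are not given in the sources used here. The deposited estimated counts are unscaled, and 46.0% to 46.6% of nonzero values per library were whole. The deposited RPKM values had nearly the same sorted values in all libraries (99.8% of 20504 ranks within 0.1%), which the authors' methods do not describe. Laser microdissection and a hole punch were both used, and which library had which is not given in the sources used here. The study's methods point to RNA samples from separate mice, which the labels do not state, and litters are not given. The p-values measure the spread between these libraries.

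Counts were summed per gene symbol, rounded, filtered with filterByExpr and fitted in edgeR 4.0.16 (R 4.3.3) with TMM factors and 1 mean per group. The 7 contrasts were tested two-sided by quasi-likelihood with Benjamini-Hochberg adjustment over 14739 genes, and counted at adjusted p under 0.05, at the study's adjusted level of 0.30 and at unadjusted p under 0.05. SEs were derived from the F statistics. Total counts per library were 719735 to 17066392, and counting error alone does not cover the spread between libraries. In simulated counts for WT ethanol versus saline, 56.5% of 200 genes changed 4-fold were found at adjusted p under 0.05 among 14630 genes, with 5 false calls. The changed genes were drawn only from those above a minimum mean count, with a spread set by the trend over all genes. That share therefore does not carry over to genes with few counts, such as Mog, Mobp, Fa2h and Ermn, or with a wider spread. Lengths and GC content came from GENCODE for the same assembly. Summaries used Python 3.11.15, numpy 2.4.6, pandas 2.3.3 and matplotlib 3.10.9.

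The 30 genes, the 4 other lineage lists and the 10 marker lists were chosen with earlier results of these data known. Every gene of the 30 is named, and, from the other lineage lists, genes at adjusted p under 0.30 in a pairwise comparison, at most 6 per list. The alternatives were DESeq2 1.42.0, library size without TMM or with RLE factors, at least 1 count in any or 10 counts in every library, counts per transcript, limma 3.58.1 on log2 RPKM with 1 or 0.1 added, only the groups compared, the first letter of the library name as covariate or both L libraries left out, removal of length and GC trends (splines with 5 degrees of freedom, 14581 genes), and each library left out. Leaving out the 3 libraries highest in choroid plexus markers and splitting Mbp by start were chosen after seeing the data. Other experiments of the study were not analysed here.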

Additional observations from a re-analysis of the deposited data

Results flagged for a closer look

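By the interaction test of edgeR, with 3 libraries per group, 4 of the 28 genes (14.3%) passed an unadjusted p under 0.05 for a difference in ethanol effect between genotypes, as did 15.2% of all genes, so the share was near the background. The interaction (effect in KO minus effect in WT, log2 scale) was -1.384 for Pdgfra, -1.648 for Gpr17, -1.75 for Bcas1 and -2.396 for Enpp6. The edgeR adjusted p-values over all genes were 0.262, 0.304, 0.304 and 0.322, so 0 of the 4 passed an adjusted p under 0.05. With length and GC trends removed, the interactions were -0.19 for Pdgfra, -0.87 for Gpr17, -1.62 for Bcas1 and -1.33 for Enpp6. Without WT ethanol replicate 4, the library highest in choroid plexus markers, they were -1.11, -1.53, -1.36 and -1.09, and 0 of the 4 passed an unadjusted p under 0.05. The part of tissue composition in these values was not tested.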

How the results depend on the processing

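Counts below are of the 28 genes, in edgeR unless another tool is named. No paired analysis was possible because the groups share no replicate numbers. The causes of the changes were not tested.

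For ethanol in WT mice, the 1 gene at an unadjusted p under 0.05 became 2 with DESeq2, with either other filter, with the first letter of the library name as covariate, with length and GC trends removed or with limma on log2(RPKM + 1), and 3 without TMM factors, with limma on log2(RPKM + 0.1) or without both shallow libraries. The 2 genes at the adjusted level of 0.30 became 1 per transcript, 4 without TMM factors, 12 without both shallow libraries (2 at an adjusted p under 0.05), and 0 with either limma fit, with only the groups compared or without the 3 libraries highest in choroid plexus markers. For KO versus WT saline, the 3 genes at an unadjusted p under 0.05 became 6 without TMM factors or without both shallow libraries and 1 without the 3 choroid plexus libraries. The 5 at the adjusted level of 0.30 became 3 per transcript or with only the groups compared, 1 with either limma fit, 12 without both shallow libraries and 0 without the choroid plexus libraries, and at an adjusted p under 0.05 there was 1 with DESeq2 and 3 without both shallow libraries. For KO versus WT ethanol, 0 at an unadjusted p under 0.05 became 1 with DESeq2, per transcript, with only the groups compared or without both shallow libraries.

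For Treatment, 1 gene at an unadjusted p under 0.05 became 0 per transcript, with the first-letter covariate or without the choroid plexus libraries, 2 with either limma fit and 3 without both shallow libraries, where 8 passed the adjusted level of 0.30. For Genotype, 2 became 5 without both shallow libraries and 1 without the choroid plexus libraries, and the adjusted level of 0.30 gave 1 with DESeq2 and 9 without both shallow libraries, 1 of them at an adjusted p under 0.05. For the interaction, 4 became 2 with the first-letter covariate or either limma fit and 1 with length and GC trends removed or without the choroid plexus libraries. The 1 at the adjusted level of 0.30 became 4 with DESeq2 (where that of Mog is NA) or at least 10 counts in every library, 3 without TMM factors, 5 without both shallow libraries, and 0 with the covariate, the trends removed, either limma fit or without the choroid plexus libraries.

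Leaving out each library in turn gave, at an unadjusted p under 0.05, 1 to 9 genes for ethanol in WT mice, 0 to 1 in KO mice, 1 to 9 for KO versus WT saline, 0 to 1 for KO versus WT ethanol, 0 to 5 for Treatment, 1 to 6 for Genotype and 0 to 7 for the interaction. At the adjusted level of 0.30 the ranges were 0 to 8, 0 to 10 for KO versus WT saline, 0 to 4 for Treatment, 0 to 5 for Genotype and 0 to 8 for the interaction, and at an adjusted p under 0.05 they were 0 to 1 for the first comparison and for KO versus WT saline. The shares of all genes moved too, at an unadjusted p under 0.05 from 9.5% to 31.7% for ethanol in WT mice, 0.319% to 7.6% in KO mice, 11.0% to 33.6% for KO versus WT saline, 1.84% to 4.92% for KO versus WT ethanol, 3.53% to 18.9% for Treatment, 3.68% to 22.9% for Genotype and 9.8% to 23.6% for the interaction.

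Of all single values, 256 of 2363 under the alternatives and 220 of 2352 under leave-one-out turned sign, most of them in values that did not pass the adjusted level of 0.30, such as Mag (1.86 without WT saline replicate 13), Vcan (-0.90 per transcript), Cspg4 (-0.36 with trends removed), Enpp6 (-0.05 without WT ethanol replicate 4) and Cldn11 (0.32 with limma on log2(RPKM + 0.1)) for ethanol in WT mice. Where the value passed the adjusted level of 0.30 in either fit, the sign turned for Pdgfra with length and GC trends removed (-0.041 for ethanol in WT mice and -0.14 for KO versus WT saline), for Cldn11 in KO versus WT saline with the same limma fit (0.15), and for Matn4 with ethanol in WT mice, whose values ran from -1.026 to 2.171 as libraries were left out, the highest without WT saline replicate 13. Without TMM factors the median of all genes moved to 0.49 for both ethanol in WT mice and KO versus WT saline, the medians of the 28 genes were 0.49 and 0.51, and 23 of the genes in place of 15 had a higher mean in KO than in WT saline. With means of log2(CPM + 1), 5 marker lists in place of 3 were higher in KO than in WT saline and 1 in place of 5 under ethanol. Of 2363 values under the alternatives, 2009 kept their direction and side of the threshold, and of 2352 under leave-one-out 2032 did. With 719735 and 1953154 counts, the shallow libraries limit what Nkx6-2, Opalin, Mog, Mobp and Fa2h can show.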

Other observations

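Markers of other cells were read beside the lineage, at the adjusted level of 0.30 in edgeR, where 22.5% of all genes passed for ethanol in WT mice and 25.8% for KO versus WT saline. Both comparisons use the same WT saline libraries. Microglia markers were lower in 5 of 9 genes in each, with medians of -1.22 and -1.19 on the log2 scale. Aif1, a calcium-binding protein of microglia, had -1.51 ± 0.62 with ethanol in WT mice and -1.97 ± 0.62 in KO versus WT saline, and C1qa, a subunit of complement C1q, had -1.40 ± 0.59 and -1.59 ± 0.59. Aif1 stood at 27.0, 4.63 and 7.65 CPM in WT saline replicates 1, 3 and 13 and at 2.55, 6.95 and 4.57 in WT ethanol. Replicate 1 was far above the rest, and replicate 3 lay within the ethanol range. Summed microglia markers stood at 487, 119 and 628 CPM in WT saline, so the shallow replicate 3 lay below the other groups, which held 151 to 378 CPM. The homeostatic markers Cx3cr1 and P2ry12 had 0.62 ± 0.54 and -0.18 ± 0.52 with ethanol, and did not pass.

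Inhibitory interneuron markers were higher with ethanol in WT mice in 2 of 7 genes, the GABA-synthesizing enzymes Gad1 at 0.92 ± 0.31 and Gad2 at 1.64 ± 0.40, and in 1 of 7 for KO versus WT saline. With ethanol 5 of the 7 lay above 0, and those other than Gad1 and Gad2 did not pass. Lhx6 stood at 8.82, 61.7 and 14.5 CPM in WT saline and 8.55, 36.1 and 24.2 in WT ethanol. Sst stood at 99.95, 242 and 64.6 CPM against 34.1, 202 and 136.5, so both overlapped. Of the cortical excitatory neuron markers 1 of 9 was lower in each comparison, Emx1, a homeobox gene of the cortex, at -1.73 ± 0.54 with ethanol and -1.09 ± 0.53. Striatal neuron markers were higher with ethanol in 5 of 7 genes, among them the dopamine receptor gene Drd2 at 3.52 ± 0.98, and in 1 of 7 for KO versus WT saline. Astrocyte markers gave 0 of 9 and 1 of 9, Aldoc at -0.98 ± 0.48. Endothelial markers gave 1 of 6 higher in each, choroid plexus markers 3 of 6 and 2 of 6 higher, and hippocampal granule and thalamic markers 1 of 6 and 0 of 6. Mural and fibroblast markers gave 0 of 7 and 3 of 7 lower. All 5 red blood cell markers were lower in both, with medians of -2.86 and -3.19. In KO mice, ethanol gave 0 in each of the 10 lists, as it did in the whole table.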
